A study of Mus musculus with 6 samples.

Results

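Translation initiation and elongation factors were followed as 67 genes across 6 pools of B16F10 tumours. Members were the nuclear protein-coding genes of the count table whose symbols start with Eif and a digit from 1 to 6, or with Eef1 or Eef2, 67 of 21538 such genes and of 43629 genes in all. Of the 67, 64 had a count in at least 1 pool, 30 had a count in every pool, and 3 (Eif2s3y, Eif4e1b and Eif4ebp3) were at 0 in all 6. B16F10 is a mouse melanoma line, grown here as tumours in female C57BL/6J mice of 8 weeks, with collection once the control tumours measured 2000 mm3. RNA was extracted from pooled tumours, so each treatment is 1 library. The 6 pools are KS100 (an aldehyde dehydrogenase inhibitor) with anti-PD-1, KS100 with control IgG, AZD5363 (an AKT inhibitor) and MK1775 (a WEE1 inhibitor) with anti-PD-1, AZD5363 and MK1775 with control IgG, the DMSO vehicle with anti-PD-1, and the DMSO vehicle with control IgG, which is the control.

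Protein synthesis starts when eIF2 brings the initiator tRNA to the small ribosomal subunit, which eIF3 holds ready, and eIF4F recruits this assembly to the capped mRNA end. Kinases that phosphorylate the alpha subunit of eIF2 reduce initiation under stress, and mTORC1, a kinase complex downstream of AKT, releases eIF4E from the 4E-binding proteins. During elongation eEF1A delivers each aminoacyl-tRNA, the eEF1B subunits recharge eEF1A with GTP, and eEF2 moves the ribosome along by a codon.

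The pools held 25521 counts with KS100+anti-PD-1, 44748 with KS100, 338474 with AZD5363+MK1775+anti-PD-1, 26639 with AZD5363+MK1775, 1002088 with anti-PD-1 and 1591673 in the control. Members contributed 105, 397, 3319, 378, 14757 and 23166 of these counts in the same order. At 3 counts, the limit that a count of 0 allows, the floor was 117.6 CPM (counts per 1000000 counts) with KS100+anti-PD-1 and 1.88 in the control. Mitochondrial genes took 14.6%, 17.1%, 19.8%, 13.2%, 1.29% and 1.89% of counts in that order, and ribosomal RNA genes took 27.4% with AZD5363+MK1775+anti-PD-1 against 0.121% in the control. Summed counts of 7 melanocyte lineage markers, in CPM scaled by TMM (trimmed mean of M values), ran from 3593 with KS100+anti-PD-1 to 17125 with AZD5363+MK1775+anti-PD-1 and 22102 in the control, and Tyr was at 0 in 3 pools (KS100+anti-PD-1, KS100 and AZD5363+MK1775). With 1 pool per treatment, a ratio between pools has no replicate check. Of members reaching 20 counts in 1 of 2 pools, those whose TMM-normalised ratio was 2-fold or more, with an exact 95% interval that stayed past 1.5-fold, are called higher or lower. All intervals cover counting error only, since reads carry no molecular identifiers.

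The balance between elongation and initiation factors differed most in the pools that received an inhibitor together with anti-PD-1. The 7 genes grouped as elongation factors (6 with Eef1 symbols, and Eef2) and the 44 grouped as initiation factors were summed within each library. No scaling between libraries enters these sums. Eef1e1 and Eif1ad are grouped by name and need not act in these steps, and they had 106 and 68 counts in the control. Elongation factors made up 12.8% of the summed counts with KS100+anti-PD-1 (95% exact binomial interval 6.77 to 21.2) and 18.8% with AZD5363+MK1775+anti-PD-1 (17.5 to 20.2). They made up 46.6% with KS100 (41.4 to 51.7), 41.7% with AZD5363+MK1775 (36.6 to 47.0), 36.5% with anti-PD-1 (35.7 to 37.3) and 36.3% in the control (35.6 to 36.9). The intervals of both antibody combinations lay below those of all the other pools, and anti-PD-1 without an inhibitor was at the control's share. Over all genes, Spearman's rho of exon length with the ratio to the control was 0.275 with KS100+anti-PD-1 and 0.305 with AZD5363+MK1775+anti-PD-1. It was 0.207 with KS100, 0.0468 with AZD5363+MK1775 and 0.0965 with anti-PD-1. The part of exon length in the balance was not tested. These shares stand on 12 elongation and 82 initiation counts with KS100+anti-PD-1 and on 586 and 2527 with AZD5363+MK1775+anti-PD-1, against 7836 and 13769 in the control.

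**Figure D1:**
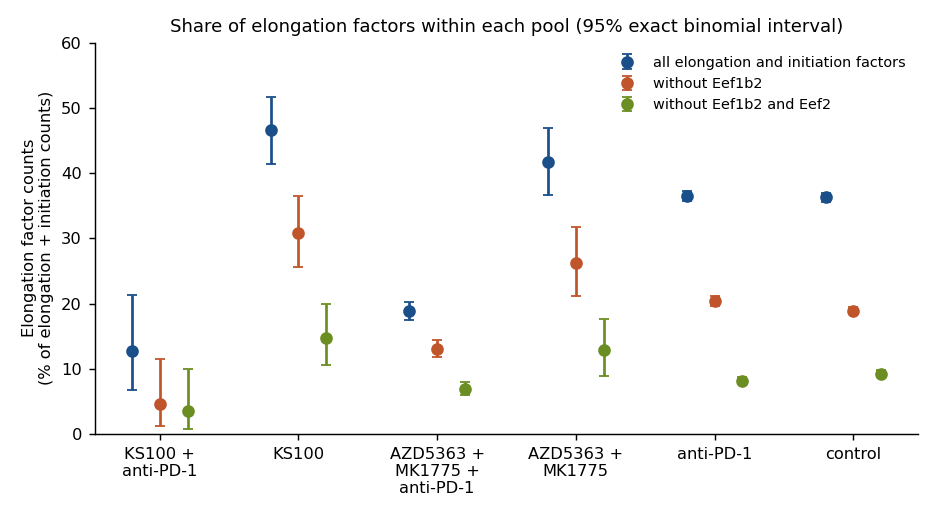
Elongation factor counts as a percentage of elongation plus initiation factor counts (y axis) in each of the 6 pools (x axis), for all factors and without Eef1b2 or without Eef1b2 and Eef2; points are the 6 libraries and bars 95% exact binomial intervals. With all factors the antibody combinations sit at 12.8% (KS100+anti-PD-1) and 18.8% (AZD5363+MK1775+anti-PD-1), below 36.3% in the control.

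Expressed as elongation counts per initiation count, the value was 0.146 with KS100+anti-PD-1, 0.871 with KS100, 0.232 with AZD5363+MK1775+anti-PD-1, 0.716 with AZD5363+MK1775, 0.575 with anti-PD-1 and 0.569 in the control. The AZD5363+MK1775+anti-PD-1 value was 0.407 times the control's (0.370 to 0.448), 0.404 times that of anti-PD-1 (0.366 to 0.445) and 0.324 times that of AZD5363+MK1775 (0.257 to 0.410). The KS100+anti-PD-1 value was 0.257 times the control's (0.128 to 0.474) and 0.169 times that of KS100 (0.0809 to 0.324). Eef1b2 and Eef2 carried part of this. Without both, in comparisons chosen after seeing the data, AZD5363+MK1775+anti-PD-1 stood at 0.725 times the control (0.616 to 0.851), 0.832 times anti-PD-1 (0.701 to 0.984) and 0.504 times AZD5363+MK1775 (0.333 to 0.782). KS100+anti-PD-1, on 3 elongation counts, then stood at 0.359 times the control (0.0724 to 1.09) and 0.212 times KS100 (0.0406 to 0.702). All 8 of 8 skeletal muscle markers were detected with AZD5363+MK1775+anti-PD-1, at a summed TMM-normalised level of 13643 CPM against 53.0 in the control, and their part in the balance was not tested. In bulk tumour RNA, fewer cells of a type and less RNA per cell cannot be told apart.

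Eef1b2 (chr1:63176825-63180486, GRCm38, gene span from GENCODE M21), the eEF1B subunit that exchanges GDP for GTP on eEF1A, was the most counted factor in the control. It had 8 counts with KS100+anti-PD-1, 86 with KS100, 206 with AZD5363+MK1775+anti-PD-1, 76 with AZD5363+MK1775, 2740 with anti-PD-1 and 4624 in the control. Its TMM-normalised level was 463.7 CPM with KS100+anti-PD-1, 2598 with KS100, 1025 with AZD5363+MK1775+anti-PD-1, 2767 with AZD5363+MK1775, 2771 with anti-PD-1 and 3028 in the control. By TMM both combination pools were low and the other 4 pools lay close together, whereas with DESeq2 size factors Eef1b2 was also called lower with KS100 and with AZD5363+MK1775 over the control. The ratio to the control was 0.338 with AZD5363+MK1775+anti-PD-1 (0.293 to 0.389) and 0.153 with KS100+anti-PD-1 (0.066 to 0.302), and both were called lower. Eef1b2 made up 6.21% of all member counts with AZD5363+MK1775+anti-PD-1 (5.41 to 7.08), 18.6% with anti-PD-1 (17.9 to 19.2) and 19.96% in the control (19.4 to 20.5).

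Eef2 (chr10:81176631-81182498), which drives translocation of the ribosome, had its lowest TMM-normalised levels in the same pools, and by TMM 1 of its pairs with the control was called. With DESeq2 size factors Eef2 was also called lower with KS100 over the control. It had 1 count with KS100+anti-PD-1, 55 with KS100, 193 with AZD5363+MK1775+anti-PD-1, 44 with AZD5363+MK1775, 1436 with anti-PD-1 and 1807 in the control. The ratio to the control was 0.049 with KS100+anti-PD-1 (0.00124 to 0.273, on 1 count), called lower, and 0.811 with AZD5363+MK1775+anti-PD-1 (0.696 to 0.942), not called. Against KS100 alone the KS100+anti-PD-1 ratio was 0.035 (0.000867 to 0.203), also called lower. Eef2k, the kinase that inhibits eEF2, had 0 counts with KS100+anti-PD-1, 0 with KS100, 1 with AZD5363+MK1775+anti-PD-1, 0 with AZD5363+MK1775, 43 with anti-PD-1 and 44 in the control, and no ratio of it was called by TMM. Library totals called Eef2k lower with AZD5363+MK1775+anti-PD-1, over the control and over anti-PD-1. DESeq2 size factors and nuclear protein-coding totals called it lower in the pair with anti-PD-1 only.

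Of the other eEF1 genes none was called by TMM in AZD5363+MK1775+anti-PD-1 over the control, while library totals called Eef1a1 lower. Summed without Eef1b2, the eEF1 group stood at 1.01 times the control there by TMM, against 0.495 (0.446 to 0.548) with it. The sum with Eef1b2 was 0.307 by library totals and 0.343 by DESeq2 size factors. Without Eef1b2 other scalings were not tried. Eef1g, a structural subunit of eEF1B, had 1 count with KS100+anti-PD-1, 11 with KS100, 80 with AZD5363+MK1775+anti-PD-1, 16 with AZD5363+MK1775, 369 with anti-PD-1 and 599 in the control, a ratio of 1.02 (0.793 to 1.28) for AZD5363+MK1775+anti-PD-1 over the control. Eef1d, an exchange subunit, had 69 counts with AZD5363+MK1775+anti-PD-1 and 480 in the control, a ratio of 1.09 (0.836 to 1.41).

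Eef1a1, which encodes the tRNA carrier itself, was thinly counted. It had 2 counts with KS100+anti-PD-1, 7 with KS100, 19 with AZD5363+MK1775+anti-PD-1, 5 with AZD5363+MK1775, 30 with anti-PD-1 and 220 in the control. The anti-PD-1 pool was the low one, at 0.211 times the control (0.139 to 0.309), called lower, and AZD5363+MK1775+anti-PD-1 over anti-PD-1 was 3.12 (1.66 to 5.72), called higher by TMM and not under the 3 other scalings, where it was 1.88 to 2.81. The 3′ end of Eef1a1 has 13 processed pseudogenes of at least 95% identity, so the counting may have split or dropped its reads and its values are uncertain. Eef1a2, the muscle and neuron paralog, had 5 counts with AZD5363+MK1775+anti-PD-1, 1 with anti-PD-1 and 0 in the control. Of the 4 methyltransferases of elongation factors only Eef2kmt, which modifies eEF2, could be compared, and it had 1 count with KS100+anti-PD-1, 1 with KS100, 3 with AZD5363+MK1775+anti-PD-1, 0 with AZD5363+MK1775, 17 with anti-PD-1 and 23 in the control, with no ratio called.

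Against the control, AZD5363+MK1775+anti-PD-1 had 13 members higher and 4 lower of 57 that could be compared, and initiation factors, 41 of the 57, made up 11 of the 13. The size rule called 22.9% of all genes in this pair, 14.9% higher and 8.02% lower, and the members' own share was 29.8%. The median ratio was 1.09 over the members and 0.995 over all genes. The higher members were Eif1ad, Eif2ak1, Eif2ak2, Eif2b4, Eif2b5, Eif2s2, Eif3c, Eif3j1, Eif3j2, Eif4e3, Eif4g1, Eif4g3 and Eif5b, and the lower ones Eef1b2, Eif1, Eif1b and Eif3g. The split depends on the scaling. The median log2 ratio of all genes was -0.69 under library totals, -0.53 under DESeq2 size factors and -0.12 under nuclear protein-coding totals. Library totals gave 5 members higher and 17 lower, DESeq2 size factors 5 and 14, and nuclear protein-coding totals 12 and 7. Of all genes, library totals called 7.51% higher and 21.3% lower, DESeq2 size factors 8.97% and 17.3%, and nuclear protein-coding totals 13.2% and 9.69%. Under all of these Eif2ak2, Eif3c, Eif3j1, Eif3j2 and Eif4e3 were called higher and Eef1b2, Eif1, Eif1b and Eif3g lower. The other 8 higher members were not called under library totals or DESeq2 size factors.

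**Figure D2:**
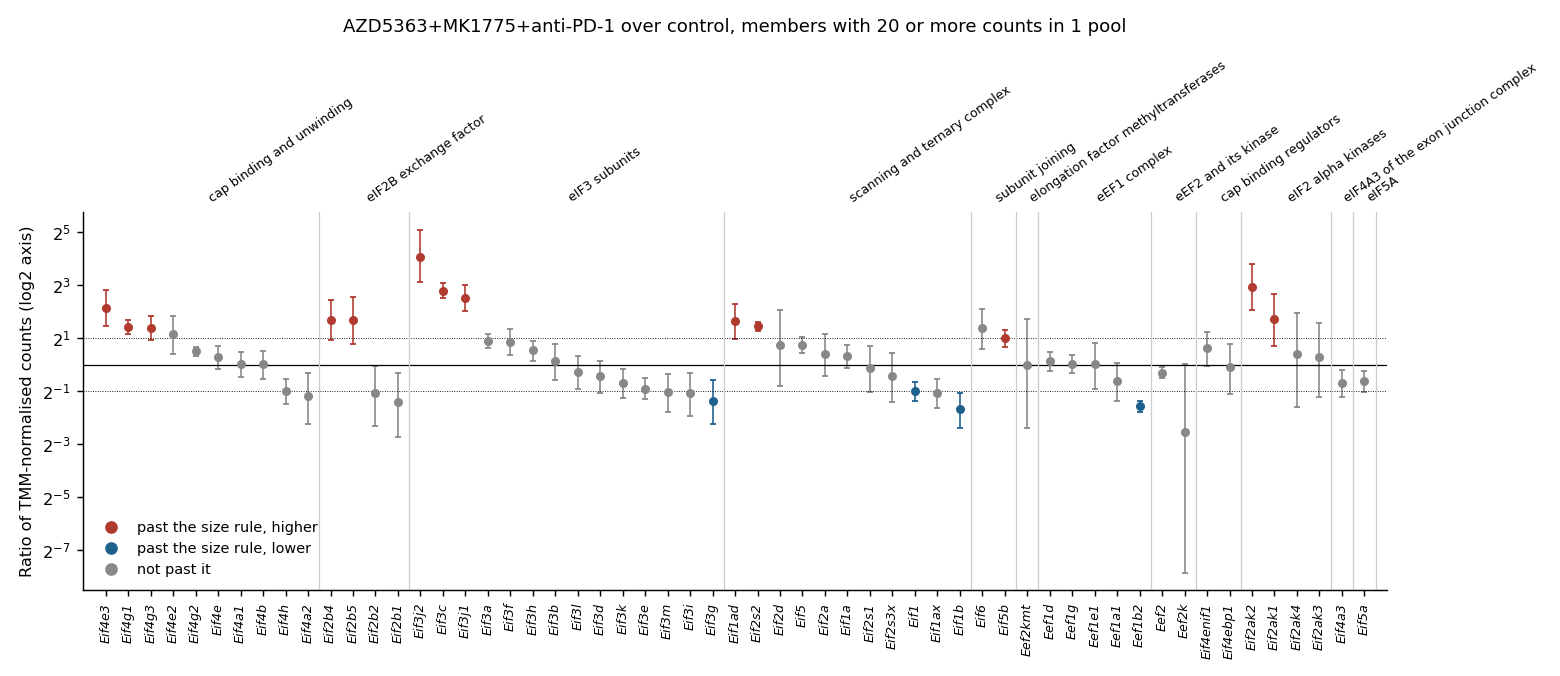
Ratio of TMM-normalised counts, AZD5363+MK1775+anti-PD-1 over control, on a log2 axis (y) for the 57 members that could be compared (x), ordered by role; points are ratios, bars 95% exact intervals and dotted lines ratios of 2 and 0.5. The 13 higher members are spread over initiation factors and the eIF2 alpha kinases, and Eef1b2 (0.338) is the lower elongation factor.

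Among the eIF3 subunits, which form the scaffold of the initiation complex, 3 were called higher and 1 lower of 14 compared with AZD5363+MK1775+anti-PD-1 over the control. Over all genes of this pair 14.9% were called higher and 8.02% lower. Eif3c (chr7:126546455-126566411), a core subunit, had 5 counts with KS100+anti-PD-1, 10 with KS100, 219 with AZD5363+MK1775+anti-PD-1, 3 with AZD5363+MK1775, 209 with anti-PD-1 and 240 in the control. By TMM the AZD5363+MK1775+anti-PD-1 pool was the only one called against the control, at 6.93 times the control (5.75 to 8.36), 5.15 times anti-PD-1 (4.24 to 6.26) and 9.97 times AZD5363+MK1775, the last on 3 counts (3.37 to 48.7). Within the eIF3 counts of a library, Eif3c took 27.1% with AZD5363+MK1775+anti-PD-1 (24.1 to 30.3), 7.33% with anti-PD-1 (6.40 to 8.34) and 5.61% in the control (4.94 to 6.34).

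The loosely bound subunit eIF3j is encoded by Eif3j1 and its copy Eif3j2, which are given as a sum and singly. The 3′ end of Eif3j2 matched an Eif3j1 transcript at 95% identity or more, and no such match was found from the 3′ end of Eif3j1. Eif3j1 also overlaps Spg11 on the opposite strand. Together they had 93 counts with AZD5363+MK1775+anti-PD-1, 51 with anti-PD-1 and 97 in the control, a ratio of 7.28 over the control (5.42 to 9.78) and 8.97 over anti-PD-1 (6.31 to 12.9). Taken singly, Eif3j1 had 3 counts with KS100+anti-PD-1, 5 with KS100, 62 with AZD5363+MK1775+anti-PD-1, 3 with AZD5363+MK1775, 45 with anti-PD-1 and 83 in the control, and Eif3j2 had 0 counts with KS100+anti-PD-1, 0 with KS100, 31 with AZD5363+MK1775+anti-PD-1, 1 with AZD5363+MK1775, 6 with anti-PD-1 and 14 in the control. Both were high with AZD5363+MK1775+anti-PD-1 alone among the 3 deeper pools, at 5.67 (Eif3j1) and 16.8 (Eif3j2) times the control.

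Eif3e, the eIF3 subunit with the most control counts, had 3 counts with KS100+anti-PD-1, 14 with KS100, 58 with AZD5363+MK1775+anti-PD-1, 10 with AZD5363+MK1775, 364 with anti-PD-1 and 824 in the control. Its share of eIF3 counts was 7.18% with AZD5363+MK1775+anti-PD-1 (5.50 to 9.18), 12.8% with anti-PD-1 (11.6 to 14.0) and 19.3% in the control (18.1 to 20.5). Its ratio over the control with AZD5363+MK1775+anti-PD-1, 0.535 (0.402 to 0.698), was not called by TMM. Library totals, DESeq2 size factors and nuclear protein-coding totals each called it lower. Eif3a, the largest subunit, had 9 counts with KS100+anti-PD-1, 7 with KS100, 167 with AZD5363+MK1775+anti-PD-1, 7 with AZD5363+MK1775, 528 with anti-PD-1 and 681 in the control and was called higher in AZD5363+MK1775+anti-PD-1 over AZD5363+MK1775 at 3.26 (1.55 to 8.23), a call that library totals (1.88) and nuclear protein-coding totals (2.37) did not keep. Eif3g, an RNA-binding subunit, had 1 count with KS100+anti-PD-1, 5 with KS100, 14 with AZD5363+MK1775+anti-PD-1, 4 with AZD5363+MK1775, 168 with anti-PD-1 and 273 in the control, and was called lower with AZD5363+MK1775+anti-PD-1 at 0.390 times the control (0.210 to 0.665). Within this complex, as over all genes of the pair, calls ran in both directions.

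**Figure D3:**
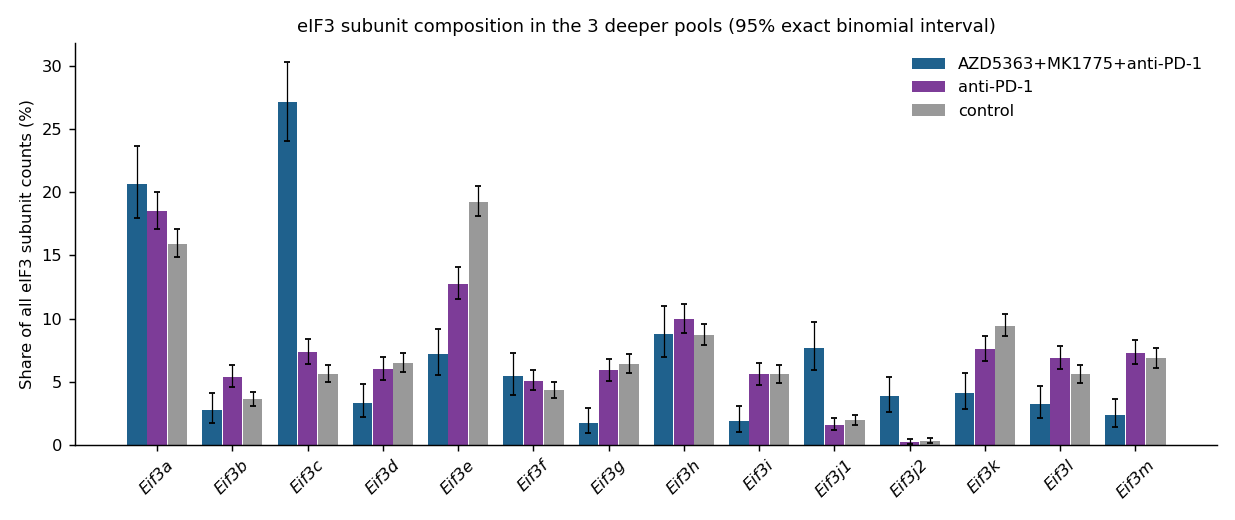
Share of all eIF3 subunit counts (y axis, %) taken by each of the 14 subunit genes (x axis) in the AZD5363+MK1775+anti-PD-1, anti-PD-1 and control pools; bars are the 3 libraries and lines 95% exact binomial intervals. Eif3c takes 27.1% with AZD5363+MK1775+anti-PD-1 against 5.61% in the control, and Eif3e 7.18% against 19.3%.

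In the cap-binding group the members called against the control with AZD5363+MK1775+anti-PD-1 were Eif4g1, Eif4g3 and Eif4e3, and the eIF4G scaffolds join the cap-binding protein to eIF3. Eif4g1 had 1 count with KS100+anti-PD-1, 5 with KS100, 155 with AZD5363+MK1775+anti-PD-1, 2 with AZD5363+MK1775, 156 with anti-PD-1 and 442 in the control. It was high with AZD5363+MK1775+anti-PD-1, at 2.66 times the control (2.20 to 3.21) and 4.89 times anti-PD-1 (3.89 to 6.14), and anti-PD-1 without inhibitor stood at 0.545 times the control, not called. Eif4g3, a paralog, had 4 counts with KS100+anti-PD-1, 8 with KS100, 57 with AZD5363+MK1775+anti-PD-1, 3 with AZD5363+MK1775, 45 with anti-PD-1 and 165 in the control, so that it was called lower with anti-PD-1 at 0.421 times the control (0.296 to 0.589) and higher with AZD5363+MK1775+anti-PD-1 at 2.62 (1.91 to 3.57). The direction of both in the combination pool is as scaled by TMM, and neither passed the rule against the control under library totals.

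Eif4g2, a relative of eIF4G that lacks the eIF4E-binding site, had 6 counts with KS100+anti-PD-1, 23 with KS100, 348 with AZD5363+MK1775+anti-PD-1, 16 with AZD5363+MK1775, 1038 with anti-PD-1 and 1867 in the control. With KS100+anti-PD-1 it was called lower at 0.284 times the control (0.104 to 0.620), a call not kept under nuclear protein-coding totals (0.325). AZD5363+MK1775+anti-PD-1 over AZD5363+MK1775 was 2.97 (1.80 to 5.26), called higher by TMM but not under library totals (1.71) or nuclear protein-coding totals (2.16). Within the counts of the 3 genes, Eif4g1 took 27.7% with AZD5363+MK1775+anti-PD-1 (24.0 to 31.6), 12.6% with anti-PD-1 (10.8 to 14.6) and 17.9% in the control (16.4 to 19.4). Eif4e3, a cap-binding paralog of eIF4E, had 1 count with KS100+anti-PD-1, 2 with KS100, 31 with AZD5363+MK1775+anti-PD-1, 1 with AZD5363+MK1775, 21 with anti-PD-1 and 53 in the control, and was called higher with AZD5363+MK1775+anti-PD-1 at 4.44 times the control (2.76 to 7.05).

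Among the regulators of cap binding no ratio was called by TMM. With DESeq2 size factors Eif4ebp1 was called lower with KS100 and with KS100+anti-PD-1 over the control, and Eif4enif1 with KS100+anti-PD-1. Eif4enif1, which binds eIF4E and shuttles it into the nucleus, had 0 counts with KS100+anti-PD-1, 1 with KS100, 26 with AZD5363+MK1775+anti-PD-1, 2 with AZD5363+MK1775, 111 with anti-PD-1 and 129 in the control. For the 4E-binding proteins, singled out after their values were seen, Eif4ebp2 took 14 of the 26 counts of Eif4ebp1 and Eif4ebp2 with AZD5363+MK1775+anti-PD-1, 0 of 97 with anti-PD-1 and 4 of 102 in the control. As shares these are 53.8% (33.4 to 73.4), 0% (0 to 3.73) and 3.92% (1.08 to 9.74).

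In the ternary complex group, Eif2s2 was the only eIF2 subunit called with AZD5363+MK1775+anti-PD-1 over the control. Eif2s2, the beta subunit, had 5 counts with KS100+anti-PD-1, 17 with KS100, 364 with AZD5363+MK1775+anti-PD-1, 16 with AZD5363+MK1775, 613 with anti-PD-1 and 1015 in the control. AZD5363+MK1775+anti-PD-1 stood at 2.72 times the control (2.41 to 3.07), 2.92 times anti-PD-1 (2.56 to 3.33) and 3.11 times AZD5363+MK1775 (1.89 to 5.50), all called higher by TMM. Under library totals these were 1.69, 1.76 and 1.79, none of them called, and the call over AZD5363+MK1775 was also not kept under nuclear protein-coding totals (2.26). Eif2s3x, the X-linked gamma subunit, had 0 counts with KS100+anti-PD-1, 0 with KS100, 12 with AZD5363+MK1775+anti-PD-1, 12 with AZD5363+MK1775, 87 with anti-PD-1 and 122 in the control, and was called higher with AZD5363+MK1775 at 5.47 times the control (2.75 to 9.90), though not with DESeq2 size factors. Eif2s1, the alpha subunit that the stress kinases phosphorylate, had 14 counts with AZD5363+MK1775+anti-PD-1 and 115 in the control, a ratio of 0.925 (0.490 to 1.62). Without Eif2s2 the summed group stood at 0.835 times the control in that pool, against 1.28 with it by TMM and 0.793 with it by library totals.

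Eif1 and Eif1b, which guide start codon choice, were lower in the same pool. Eif1, which keeps scanning ribosomes from initiating at poor start sites, had 6 counts with KS100+anti-PD-1, 8 with KS100, 67 with AZD5363+MK1775+anti-PD-1, 13 with AZD5363+MK1775, 558 with anti-PD-1 and 1022 in the control. Its paralog Eif1b had 0 counts with KS100+anti-PD-1, 6 with KS100, 21 with AZD5363+MK1775+anti-PD-1, 11 with AZD5363+MK1775, 257 with anti-PD-1 and 515 in the control. Summed, the pair stood at 0.435 times the control with AZD5363+MK1775+anti-PD-1 (0.347 to 0.539), and singly at 0.498 (Eif1) and 0.310 (Eif1b), both called lower. Eif1b was also called lower with KS100+anti-PD-1, where 0 counts put it at least 1.94-fold below the control, a call not kept under nuclear protein-coding totals. Eif1 has 10 processed pseudogenes at its 3′ end, so its own values are uncertain.

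Eif1ad, a protein with an eIF1A-like domain, had 0 counts with KS100+anti-PD-1, 2 with KS100, 28 with AZD5363+MK1775+anti-PD-1, 0 with AZD5363+MK1775, 97 with anti-PD-1 and 68 in the control, and was called higher with anti-PD-1 at 2.20 times the control (1.60 to 3.05), though not with DESeq2 size factors, and with AZD5363+MK1775+anti-PD-1 at 3.13 (1.94 to 4.92). Eif5b, the GTPase that joins the ribosomal subunits, had 7 counts with KS100+anti-PD-1, 12 with KS100, 107 with AZD5363+MK1775+anti-PD-1, 23 with AZD5363+MK1775, 179 with anti-PD-1 and 406 in the control. It was called higher with AZD5363+MK1775 at 3.15 times the control (1.97 to 4.79) and with AZD5363+MK1775+anti-PD-1 at 2.002 (1.60 to 2.48), and neither call was kept with DESeq2 size factors. Eif5b overlaps Rev1 on the opposite strand. Eif2a, an initiator tRNA-binding protein distinct from eIF2, had 6 counts with KS100+anti-PD-1, 10 with KS100, 17 with AZD5363+MK1775+anti-PD-1, 4 with AZD5363+MK1775, 75 with anti-PD-1 and 97 in the control, and both KS100 pools were called higher by TMM, at 5.48 times the control with KS100+anti-PD-1 (1.96 to 12.4) and 4.76 with KS100 (2.21 to 9.13), though DESeq2 size factors turned the KS100+anti-PD-1 value to 0.668 and brought the KS100 value to 1.63, not called. The KS100+anti-PD-1 call was also not kept under library totals or after subtracting the exon background.

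Of the 5 subunits of eIF2B, the factor that reloads eIF2 with GTP, only Eif2b4 and Eif2b5 were called over the control by TMM. Eif2b4 had 1 count with KS100+anti-PD-1, 0 with KS100, 23 with AZD5363+MK1775+anti-PD-1, 0 with AZD5363+MK1775, 26 with anti-PD-1 and 54 in the control, and Eif2b5, the catalytic subunit, had 0 counts with KS100+anti-PD-1, 1 with KS100, 17 with AZD5363+MK1775+anti-PD-1, 0 with AZD5363+MK1775, 43 with anti-PD-1 and 40 in the control. They were called higher with AZD5363+MK1775+anti-PD-1, at 3.24 (1.90 to 5.36) and 3.23 (1.72 to 5.83) times the control. Eif2b1, with the most control counts of the 5, had 0 counts with KS100+anti-PD-1, 1 with KS100, 7 with AZD5363+MK1775+anti-PD-1, 0 with AZD5363+MK1775, 76 with anti-PD-1 and 141 in the control, and no ratio of it was called by TMM. Library totals and DESeq2 size factors called Eif2b1 lower with AZD5363+MK1775+anti-PD-1 over the control. DESeq2 size factors also called it lower with KS100 and with KS100+anti-PD-1 over the control. Eif2b2 had 0 counts with KS100+anti-PD-1, 5 with KS100, 8 with AZD5363+MK1775+anti-PD-1, 1 with AZD5363+MK1775, 132 with anti-PD-1 and 128 in the control, and was called lower in AZD5363+MK1775+anti-PD-1 over anti-PD-1 at 0.298 (0.126 to 0.605).

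The 4 kinases that phosphorylate eIF2 alpha respond to haem shortage (Eif2ak1), double-stranded RNA (Eif2ak2, known as PKR and induced by interferon), unfolded proteins (Eif2ak3, known as PERK) and amino acid shortage (Eif2ak4, known as GCN2). Their promoters are shown for the 2 kinases that were called, as 300 bases from 250 before to 50 after the transcript start, on the coding strand, from RefSeq on GRCm38.p6. Capitals mark the interferon-stimulated response element core, which is GAAA, any 2 bases and GAAA, searched on both strands.
Eif2ak2 (chr17:78882523-78882822, minus strand): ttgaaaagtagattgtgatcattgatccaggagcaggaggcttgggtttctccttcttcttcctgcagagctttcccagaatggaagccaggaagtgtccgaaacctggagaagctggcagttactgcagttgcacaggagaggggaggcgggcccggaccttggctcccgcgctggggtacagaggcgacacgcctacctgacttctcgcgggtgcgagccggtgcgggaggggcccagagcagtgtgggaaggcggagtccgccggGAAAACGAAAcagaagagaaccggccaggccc
Eif2ak1 (chr5:143817542-143817841, plus strand): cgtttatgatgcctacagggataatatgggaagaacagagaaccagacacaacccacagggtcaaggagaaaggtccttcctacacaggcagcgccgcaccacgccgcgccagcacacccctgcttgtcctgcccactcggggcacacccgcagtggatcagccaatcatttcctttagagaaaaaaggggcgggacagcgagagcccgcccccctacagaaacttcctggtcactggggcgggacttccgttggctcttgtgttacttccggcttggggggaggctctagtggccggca
The core begins at base 19 of the Eif2ak2 transcript, and no match lies in the Eif2ak1 window. It was found for 1079 of 27025 genes with a window (3.99%), and for 4 of the 51 members with one (Eif2ak2, Eif2s1, Eif2s3x and Eif3a). A match in these letters is a description and not a measured site.

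Eif2ak2 had 0 counts with KS100+anti-PD-1, 2 with KS100, 25 with AZD5363+MK1775+anti-PD-1, 1 with AZD5363+MK1775, 17 with anti-PD-1 and 25 in the control. The AZD5363+MK1775+anti-PD-1 pool was high relative to its depth, at 7.60 times the control (4.19 to 13.8) and 7.23 times anti-PD-1 (3.75 to 14.3), and the call held under each scaling tried. In this pool 7 of 7 macrophage markers were detected, at a summed TMM-normalised level of 591.9 CPM against 105.4 in the control, and their part in the kinase level was not tested. Eif2ak3 had 0 counts with KS100+anti-PD-1, 0 with KS100, 6 with AZD5363+MK1775+anti-PD-1, 1 with AZD5363+MK1775, 15 with anti-PD-1 and 37 in the control, and Eif2ak4 had 0 counts with KS100+anti-PD-1, 2 with KS100, 4 with AZD5363+MK1775+anti-PD-1, 0 with AZD5363+MK1775, 23 with anti-PD-1 and 23 in the control, with no ratio called for either.

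Eif2ak1 had 3 counts with KS100+anti-PD-1, 6 with KS100, 14 with AZD5363+MK1775+anti-PD-1, 0 with AZD5363+MK1775, 19 with anti-PD-1 and 32 in the control. By TMM both KS100 pools were called higher, at 8.30 times the control with KS100+anti-PD-1 (1.63 to 26.5, on 3 counts) and 8.65 with KS100 (2.96 to 21.0), and AZD5363+MK1775+anti-PD-1 was at 3.32 (1.64 to 6.41). With DESeq2 size factors neither KS100 call was kept, at 1.01 with KS100+anti-PD-1 and 2.96 with KS100, and library totals did not keep the KS100+anti-PD-1 call (5.85). In a model of the 6 pools with additive inhibitor and antibody terms (edgeR quasi-likelihood test, 4912 genes, 2 residual degrees of freedom), it was the 1 member of 47 fitted that passed Benjamini-Hochberg adjustment, and in the KS100 arm, where 7.7% of genes passed (7.21% higher and 0.489% lower). Its KS100 log2 change was 3.14 (SE 1.08), with an adjusted p of 0.0469 by that test, and by TMM it was higher in 2 of 2 KS100 pools. The DESeq2 Wald test gave a log2 change of 3.20 and an adjusted p of 0.0483, with size factors computed anew from the 4912 fitted genes. The DESeq2 size factors named elsewhere were computed from all genes, and with them the edgeR log2 change was 1.03. By edgeR the adjusted p was 0.474 with DESeq2 size factors, 0.107 with library totals, 0.126 without the filter, 0.159 without the AZD5363+MK1775 pool, 0.643 without the KS100 pool and 0.798 without the KS100+anti-PD-1 pool. The 3′ end of Eif2ak1 overlaps Aimp2 on the opposite strand, and since the strand setting of the counting is not given in the sources used here, reads of the genes cannot be told apart, nor those of Eif3j1 and Spg11 or of Eif5b and Rev1.

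**Figure D4:**
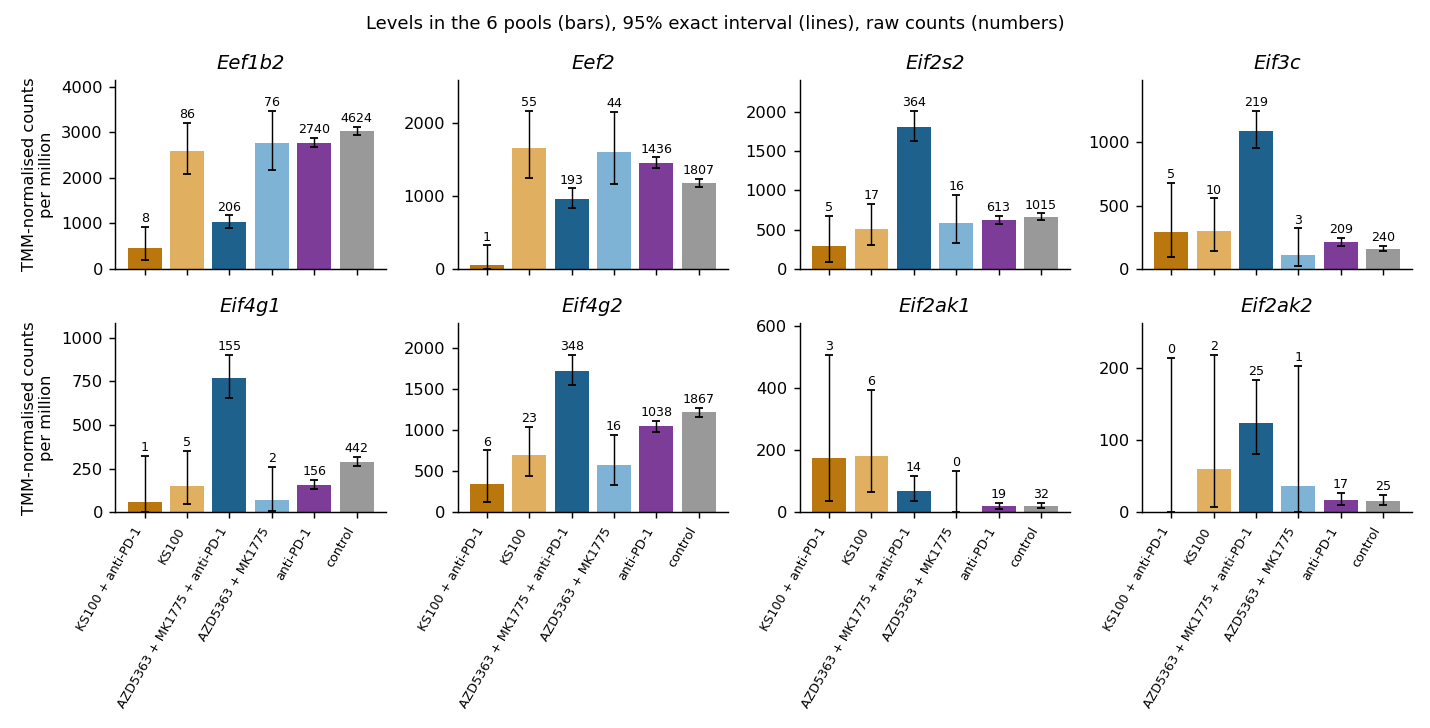
TMM-normalised CPM (y axis) of 8 members in the 6 pools (x axis); bars are the libraries, lines 95% exact intervals and numbers the raw counts. Eef1b2 and Eef2 are lowest in the antibody combinations (8 and 1 counts with KS100+anti-PD-1), while Eif2s2, Eif3c, Eif4g1 and Eif2ak2 are highest with AZD5363+MK1775+anti-PD-1.

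For the anti-PD-1 arm and the AZD5363+MK1775 arm the same edgeR fit passed 0 members, with 1 and 2 members at an unadjusted p under 0.05, and the DESeq2 Wald test also passed 0 in each. The fit passed 0.143% of all genes in the anti-PD-1 arm, 0.102% higher and 0.0407% lower, and 1.34% in the AZD5363+MK1775 arm, 1.28% higher and 0.0611% lower. A fit that leaves out 1 pool has 1 arm resting on 1 library. Without the AZD5363+MK1775 pool, Eif3j2 and Eif4ebp2 each had an AZD5363+MK1775 log2 change of 4.47 or more. Without the AZD5363+MK1775+anti-PD-1 pool, the KS100 log2 change of Eif2a was 2.73.

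In pairs, anti-PD-1 over the control called 3 of 56 members (Eif1ad higher, Eef1a1 and Eif4g3 lower), where 4.83% of all genes were called, 2.69% higher and 2.14% lower. The members' summed counts stood at 0.984 times the control (0.964 to 1.00). AZD5363+MK1775 over the control called 2 of 56 (Eif2s3x and Eif5b higher), beside 2.93% of all genes, 1.65% higher and 1.28% lower. Its summed ratio was 0.907 (0.817 to 1.00), and 10 of the 56 were at 0 in that pool. DESeq2 size factors turned this pair to 0 higher and 9 lower, beside 0.428% and 9.75% of all genes.

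KS100 over the control called 3 of 56 members, 2 higher and 1 lower, beside 6.36% of all genes, 4.5% higher and 1.86% lower. KS100+anti-PD-1 over the control called 6 of 56, 2 higher and 4 lower, beside 7.45% of all genes, 4.59% higher and 2.86% lower. Eif4a3, the helicase of the exon junction complex, had 1 count with KS100+anti-PD-1, 0 with KS100, 37 with AZD5363+MK1775+anti-PD-1, 1 with AZD5363+MK1775, 293 with anti-PD-1 and 455 in the control, and with KS100 its 0 counts put it at least 3.29-fold below the control, called lower. The members' summed counts stood at 0.401 times the control with KS100+anti-PD-1 (0.328 to 0.486) and 0.791 with KS100 (0.714 to 0.873). In these shallow pools the background matters, since protein-coding genes at 0 in the anti-PD-1 and control pools carried counts there. Spread evenly over exons, that background would give 25.3 of the 105 member counts with KS100+anti-PD-1 and 21.6 of the 397 with KS100. Under library totals the calls over the control were 0 higher and 8 lower with KS100+anti-PD-1 and 2 higher and 6 lower with KS100. Of all genes, that scaling called 3.06% higher and 5.46% lower with KS100+anti-PD-1, and 3.24% and 4.04% with KS100. Under DESeq2 size factors the member calls were 0 and 43 with KS100+anti-PD-1, and 0 and 29 with KS100. Of all genes, 0.239% were then called higher and 48.9% lower with KS100+anti-PD-1, and 0.956% and 22.9% with KS100.

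The pairs between treatments share pools with those above and are given for the members alone. AZD5363+MK1775+anti-PD-1 over anti-PD-1 called 11 members higher and 4 lower of 54, beside 22.1% of all genes, 14.0% higher and 8.11% lower. Library totals gave 7 higher and 18 lower, beside 7.19% and 24.7% of all genes. DESeq2 size factors gave 10 and 13, beside 9.37% and 16.2%. Eif5a, the factor that carries hypusine and eases stalled elongation, had 4 counts with KS100+anti-PD-1, 5 with KS100, 55 with AZD5363+MK1775+anti-PD-1, 9 with AZD5363+MK1775, 548 with anti-PD-1 and 643 in the control, and was called lower in this pair at 0.494 (0.367 to 0.652). AZD5363+MK1775+anti-PD-1 over AZD5363+MK1775 called 5 higher and 2 lower of 38, beside 14.8% of all genes, 11.1% higher and 3.72% lower. Among them was Eif4g1 at 10.6 on 2 counts (2.88 to 88.2). Library totals gave 2 higher and 4 lower in this pair, DESeq2 size factors 5 and 0, and nuclear protein-coding totals 2 and 3.

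KS100+anti-PD-1 over anti-PD-1 called 1 member higher (Eif2a, 4.59, which DESeq2 size factors turned to 0.601) and 2 lower (Eef1b2, 0.167, and Eef2, 0.040) of 52, beside 6.39% of all genes, 3.33% higher and 3.06% lower. KS100+anti-PD-1 over KS100 could compare 3 members and called 2 lower (Eef1b2, 0.178, and Eef2, 0.035), beside 38.3% of all genes, 4.31% higher and 34.0% lower.

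Properties that the symbol rule did not use were compared for AZD5363+MK1775+anti-PD-1 over the control. Members called higher had a median exon length of 5113 bases, those called lower 2041 and the others 4251. Across the 57 members Spearman's rho between exon length and ratio was 0.32, and across 8042 genes it was 0.305, where all points share the same pair of libraries and genes are not independent replicates. Of the 67 members, 15 have a processed pseudogene nearly identical at the 3′ end, and 14 overlap another gene there, 9 of them on the opposite strand alone.

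Genes of neighbouring steps were taken from lists chosen by function, and their calls in AZD5363+MK1775+anti-PD-1 over the control stand beside 22.9% of all genes called in that pair. All calls of genes from these lists are by TMM alone, and other scalings were not tried for them singly. Of 9 termination and poly(A)-binding genes compared, 3 were called higher and 1 lower with AZD5363+MK1775+anti-PD-1 over the control. Pabpc1, the main poly(A)-binding protein, had 639 counts with AZD5363+MK1775+anti-PD-1 and 808 in the control, 6.01 times the control (5.41 to 6.67). Gspt1, a release factor, was at 3.88, Abce1, a recycling factor, at 2.30, and Pabpc4, a paralog of Pabpc1, at 0.309 there and 2.93 with AZD5363+MK1775.

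On the mTORC1 axis, 12 genes were compared in each pair with the control. With AZD5363+MK1775+anti-PD-1, 1 was called higher (Rps6kb1, which phosphorylates ribosomal protein S6, 2.32) and 2 lower (Mtor, the kinase, 0.155 on 2 counts, and Ddit4, an mTORC1 inhibitor, 0.083 on 3 counts). Larp1, with the most control counts of the list, stood at 1.58 (1.31 to 1.90), not called. With KS100+anti-PD-1, Rps6kb1 (4.73) and Rptor (17.7, on 5 counts) were called higher by TMM, and with KS100, Rps6kb1 (3.52) and Rps6 (5.77). These stand beside 7.45% and 6.36% of all genes called, and member calls in the same pairs changed with the scaling. Rps6, which encodes ribosomal protein S6, was called lower with anti-PD-1 at 0.257 (0.105 to 0.549).

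In the other lists few genes passed. Of 5 genes of the eIF2 phosphatase, hypusine and reinitiation list, none was called in the pairs of the inhibitor pools with the control, and Ppp1r15b, a subunit of the eIF2 alpha phosphatase, stood at 0.929 (0.648 to 1.30) with AZD5363+MK1775+anti-PD-1. Mtif2, the mitochondrial initiation factor, was called higher in that pool, with 27 counts against 8 in the control (ratio 25.6, 11.3 to 65.3). Mitochondrial factors were otherwise called for Gfm2 (10.6, on 3 counts) with KS100+anti-PD-1 and Mtrf1l (6.15) with KS100, and Gfm1, with the most control counts, stood at 0.970 with AZD5363+MK1775+anti-PD-1. Aimp1, a scaffold of the tRNA synthetase complex, was called higher there at 2.39 (1.67 to 3.36).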

How the data were processed

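Each library was a pool of tumours prepared with a QuantSeq 3′ FWD kit and run for 151 cycles on a MiSeq, per the labels' protocols. The authors deposited raw counts per gene; alignment and counting rest on HISAT2 2.1.0, HTSeq and GRCm38, per the submitters' processing notes. The strand setting and the treatment of multi-mapped reads were not stated in any source used. The 92 spike-ins held 0 counts. Gene types came from GENCODE M21. Ratios used TMM factors from 4912 genes and exact conditional 95% intervals; a gene needed 20 counts in 1 pool, a ratio of 2 and an interval beyond 1.5-fold. Effects of the arms came from edgeR 4.0.16 (R 4.3.3) with inhibitor and antibody as additive terms, adjusted over all fitted genes at 0.05, with DESeq2 1.42.0 as the alternative. An arm effect's SE is its log2 change over the square root of F. Replicates were absent, so p-values measure the spread left by that additive model. Near copies were found from the last 500 bases of each gene (at least 95% identity over 100 bases). Scripts were tested on simulated data. The members and lists were chosen with earlier results of these data known, and named members were Eef2, Eef1a1, each called member and the most counted member of each role.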

Additional observations from a re-analysis of the deposited data

Results flagged for a closer look

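Some effects of a treatment ran opposite ways depending on what it was combined with, and none of these differences was tested. Values are as scaled by TMM unless another scaling is named. Anti-PD-1 moved Eif4g1 to 10.6 times AZD5363+MK1775 within that arm, on 2 counts without the antibody, against 0.545 times the control without inhibitor. The sum of Eef2 and its kinase stood at 0.602 for anti-PD-1 within the AZD5363+MK1775 arm and 0.0349 within the KS100 arm, against 1.23 without inhibitor. KS100 gave 0.0388 for the same sum in the presence of anti-PD-1 and 1.37 in its absence. With DESeq2 size factors KS100 over the control was 0.47, below 1 as with the antibody. The cap-binding sum stood at 2.73 for anti-PD-1 within the AZD5363+MK1775 arm against 0.888 without inhibitor, and AZD5363+MK1775 gave 1.58 with anti-PD-1 and 0.512 without it. AZD5363+MK1775+anti-PD-1 over the control was 1.40 by TMM but 0.866 by library totals and 0.969 by DESeq2 size factors.

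Processed pseudogenes, which enter no comparison above, carried counts out of proportion in some pools. The copies of Eef1a1 stood at 59.0 times the control with KS100+anti-PD-1, and those of Eif1 at 266, on 2 against 3 counts (interval 4.93 to 515) and 3 against 1 (21.3 to 13941). Exon background of the kind seen in genes at 0 in the anti-PD-1 and control pools would make up 39.0% of all counts with KS100+anti-PD-1, and its part in these counts was not tested. The copy of Eif2s2 stood at 4.92 times the control with AZD5363+MK1775+anti-PD-1, on 22 counts against 34 (interval 2.74 to 8.65).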

How the results depend on the processing

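No paired analysis was possible because each treatment is 1 pool. Of 58 calls of members in the 9 pairs, 40 were kept under library totals, 39 under DESeq2 size factors, 51 under nuclear protein-coding totals, 58 with a count minimum of 10 and 46 with 50, and 56 after subtracting the exon background. Thinned to the shallowest pool, 11 of the 44 calls with a value were kept, and 1 reversed. Thinned counts were compared at equal totals without TMM factors, so depth and scaling changed together. Depth limits most pairs: 3 members with AZD5363+MK1775, 3 with KS100 and 0 with KS100+anti-PD-1 reached 20 counts. The cause of the changes below was not tested.

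Thinned to 25521 counts, calls over the control numbered 3 with KS100+anti-PD-1, 1 each with KS100, AZD5363+MK1775+anti-PD-1 and AZD5363+MK1775, and 0 with anti-PD-1, and 1 each for AZD5363+MK1775+anti-PD-1 over anti-PD-1 and over AZD5363+MK1775. The thinned pairs with the control stand, in that order, beside 86.7%, 42.7%, 59.4%, 20.9% and 4.63% of all genes called. The members' summed ratios were then 0.264 (KS100+anti-PD-1), 0.606 (KS100) and 0.631 (AZD5363+MK1775+anti-PD-1) over the control, 0.635 and 0.688 for AZD5363+MK1775+anti-PD-1 over anti-PD-1 and over AZD5363+MK1775, and 0.266 for KS100+anti-PD-1 over anti-PD-1. By library totals without thinning, the sums over the control were 0.283, 0.61 and 0.674, and by TMM 0.401, 0.791 and 1.09, in the same order. Eif2b4 reversed to 0.5.

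With DESeq2 size factors, calls numbered 9 (AZD5363+MK1775), 29 (KS100) and 43 (KS100+anti-PD-1) over the control, 23 for AZD5363+MK1775+anti-PD-1 over anti-PD-1 and 41 for KS100+anti-PD-1 over anti-PD-1. The pairs with the control stand beside 10.2%, 23.8% and 49.2% of all genes called, and AZD5363+MK1775+anti-PD-1 over anti-PD-1 beside 25.6%. Summed ratios over the control were 0.049 for KS100+anti-PD-1, 0.271 for KS100, 0.753 for AZD5363+MK1775+anti-PD-1, 0.447 for AZD5363+MK1775 and 0.915 for anti-PD-1. AZD5363+MK1775+anti-PD-1 gave 0.823 over anti-PD-1 and 1.68 over AZD5363+MK1775, and KS100+anti-PD-1 gave 0.0535 over anti-PD-1 and 0.181 over KS100. Eif2a reversed to 0.668 (KS100+anti-PD-1 over control) and 0.601 (over anti-PD-1), and Eef2 with its kinase to 0.47 (KS100). In AZD5363+MK1775+anti-PD-1 over the control, cap binding was 0.969, eIF2B 0.915, eIF3 0.993, scanning 0.886 and all initiation 0.965.

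With library totals, calls numbered 8 (KS100 over control), 25 (AZD5363+MK1775+anti-PD-1 over anti-PD-1) and 8 (KS100+anti-PD-1 over anti-PD-1). The KS100 arm of the edgeR fit then passed 2 members, Eif3h and Eif4a3, both lower, and Eif2ak1 did not pass. Summed ratios were 0.283 (KS100+anti-PD-1), 0.61 (KS100), 0.674 (AZD5363+MK1775+anti-PD-1) and 1.01 (anti-PD-1) over the control, 0.666 and 0.691 for AZD5363+MK1775+anti-PD-1 over anti-PD-1 and over AZD5363+MK1775, and 0.279 for KS100+anti-PD-1 over anti-PD-1. In AZD5363+MK1775+anti-PD-1 over the control, cap binding was 0.866, eIF2B 0.819, eIF3 0.888, scanning 0.793 and all initiation 0.863. With nuclear protein-coding totals the sums were 1.0 (AZD5363+MK1775+anti-PD-1), 1.15 (AZD5363+MK1775) and 1.01 (anti-PD-1) over the control, 0.997 and 0.872 for AZD5363+MK1775+anti-PD-1 over anti-PD-1 and over AZD5363+MK1775, and initiation with AZD5363+MK1775 was 1.08. A count minimum of 10, or none, gave 5 calls in KS100+anti-PD-1 over anti-PD-1.

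The elongation per initiation ratio without Eef1b2, chosen after seeing the data, was 1.1 (anti-PD-1), 0.645 (AZD5363+MK1775+anti-PD-1) and 1.91 (KS100) over the control, and 0.588 and 0.423 for AZD5363+MK1775+anti-PD-1 over anti-PD-1 and over AZD5363+MK1775. Without Eef1b2 and Eef2 it was 0.872 (anti-PD-1) and 0.725 (AZD5363+MK1775+anti-PD-1) over the control, and 0.832 and 0.504 in those other pairs. Without members that have processed pseudogenes it was 0.329 and 0.324 for AZD5363+MK1775+anti-PD-1 over control and over anti-PD-1. The KS100 arm passed 0 members with DESeq2 size factors in edgeR and 0 without the filter. Leaving out 1 pool at a time gave 0 to 2 members in the AZD5363+MK1775 arm, 0 to 1 in the KS100 arm and 0 in the anti-PD-1 arm. Without its most counted member, the eEF1 sum became 1.01 and scanning 0.835 (both AZD5363+MK1775+anti-PD-1), Eef2 with its kinase 0 (KS100, where Eef2k was at 0), eIF2B 0.96 (anti-PD-1) and subunit joining 1.94 (anti-PD-1) and 0.897 (AZD5363+MK1775).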
